A study of Mus musculus with 9 samples.

Results

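The 10 genes that make, break down and regulate polyamines were followed in sorted mouse hair follicle stem cells under 2 diets. They were chosen by symbol from the 35006 gene rows of the deposited tables, by role in the pathway: Odc1, Amd1, Srm and Sms for synthesis, Sat1, Smox and Paox for breakdown, and Oaz1, Oaz2 and Azin1 for regulation. All 10 symbols were found and all 10 passed the filter on low counts, as did 15447 rows in all. In mice on dietary restriction (DR), Odc1, Srm, Sms, Smox and Oaz2 fell and Sat1 rose, while Amd1, Paox, Oaz1 and Azin1 did not pass the test.

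RNA was sequenced from CD34+alpha6+ cells, the surface phenotype of bulge stem cells, taken by flow sorting from C57BL/6J mice that carried no stated transgene or other allele and lived 1 to a cage. The AL group (5 libraries) ate without limit, and the DR group (4 libraries) was given each day 70% of what AL mice of like body weight and sex ate. Per the labels, cells of 3 mice were pooled per group; nothing says that each library is a pool of its own, so p-values measure the spread between these libraries, which may be technical. The labels give no age, length of the diet or hair cycle stage.

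Polyamines (putrescine, spermidine and spermine) are small positively charged molecules that bind RNA and DNA and that growing cells need for translation and division. Ornithine decarboxylase makes putrescine from ornithine, and aminopropyl groups taken from decarboxylated S-adenosylmethionine then extend it to spermidine and spermine. Acetylation by SAT1 marks polyamines for export or oxidation, and antizymes, whose own translation is switched on by polyamines, send ornithine decarboxylase to the proteasome. In skin, raised ornithine decarboxylase in the hair follicle is known from transgenic mice to disturb hair growth and to favour tumours.

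Libraries held 26119459 to 33559312 counts over genes. Of the 15447 rows tested with edgeR's quasi-likelihood test, 6290 (40.7%) passed a Benjamini-Hochberg adjusted p under 0.05, 2941 of them higher in DR (19.0%) and 3349 lower (21.7%). The 10 bulge and basal markers, Cd34 and Itga6 included, were detected in both diets, with a summed level (most of it Krt5, Krt15 and Krt14) of 27557 to 38493 CPM (counts scaled to a common library total) in AL and 20845 to 22285 CPM in DR, and 6 of the 10 were lower in DR. Cd34, a marker of the sort, was among them (mean 1083 CPM in AL and 479 CPM in DR, log2 fold change -1.18, edgeR adjusted p = 0.016), and Itga6 did not pass. The diets also differed in 15 of 15 markers of dividing cells, all lower in DR, with summed levels of 118 to 873 CPM in AL and 16.4 to 47.3 CPM in DR. The summed level of 8 fibroblast markers was 169 to 593 CPM in AL and 25.5 to 49.9 CPM in DR, with 1 of 5 tested markers higher and 3 lower. Most of that sum was Bgn, Col1a2 and Col1a1, the 3 that were lower (means of 298, 51.9 and 49.4 CPM in AL and 5.65, 19.6 and 4.88 CPM in DR). Pdgfra was higher (1.07 and 3.02 CPM), and the other 4 had means of at most 1.67 CPM. Of 6 tested melanocyte markers 3 were lower (Dct, Tyrp1 and Kit), with sums of 112 to 231 CPM in AL and 125 to 177 CPM in DR that were mostly Mitf. Of 6 suprabasal epidermal markers 2 were higher (Sbsn and Krtdap), with sums of 2102 to 4855 CPM and 2387 to 5782 CPM. Immune marker sums were 42.0, 54.4 and 41.4 CPM in AL replicate 1, DR replicate 1 and DR replicate 2 and 2.56 to 13.6 CPM in the other libraries. Endothelial sums in the same 3 libraries were 15.4, 34.1 and 19.99 CPM against 0.94 to 6.80 CPM elsewhere. The part of these differences in the results below was not tested. In bulk RNA, fewer cells of a type and less RNA per cell cannot be told apart.

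Against this background, 6 of the 10 polyamine genes passed the test (60% against 40.7% of all tested rows), 1 of them higher in DR (Sat1) and 5 lower (50% against 21.7%). With so many rows called, 6 of 10 describes these genes and does not set them apart from others. Their median log2 fold change was -0.34, against -0.02 for all tested rows. Libraries of the 2 diets did not overlap for 4 genes (Srm, Sms, Oaz2 and Sat1), or 40%, where 32.9% of all tested rows did not overlap.

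**Figure D1:**
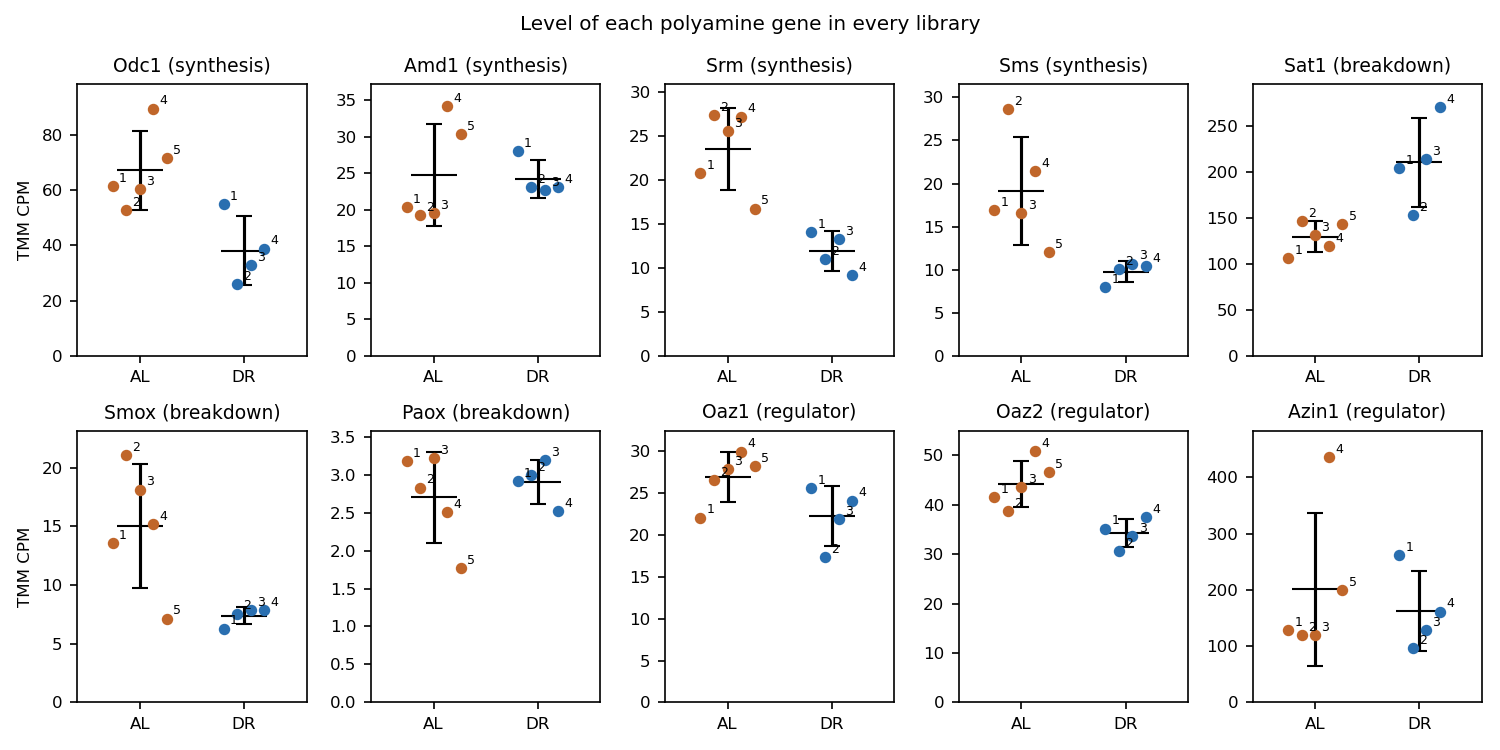
Level of each of the 10 genes in CPM after TMM scaling (y axis, from 0) in 5 AL and 4 DR libraries, with the replicate number beside each point, and the group mean and SD in black. DR points lie below all AL points for Srm, Sms and Oaz2 and above all AL points for Sat1.

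Odc1 encodes ornithine decarboxylase, the first and usually rate-limiting enzyme of polyamine synthesis. Its level (CPM after TMM scaling, here and for all genes below) was 61.4, 52.7, 60.2, 89.3 and 71.5 CPM in AL replicates 1 to 5 and 54.8, 25.9, 32.8 and 38.8 CPM in DR replicates 1 to 4. DR replicate 1 was the only DR library to reach the AL range, just above AL replicate 2. The mean fell from 67.0 ± 14.2 CPM (SD, n = 5) to 38.1 ± 12.3 CPM (SD, n = 4), a log2 fold change of -0.82 with a standard error (SE) of 0.21 (edgeR quasi-likelihood test, Benjamini-Hochberg adjusted p = 0.0105). That is 1.76-fold lower. Without DR replicate 1, the highest DR library, the log2 fold change was -1.04 (edgeR adjusted p = 0.00213). The call held without any 1 library, and was weakest without DR replicate 3 (-0.74, edgeR adjusted p = 0.0376).

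Srm encodes spermidine synthase, which adds the first aminopropyl group to putrescine. It stood at 20.7, 27.3, 25.5, 27.1 and 16.7 CPM in AL and at 14.1, 11.0, 13.3 and 9.19 CPM in DR. Every DR library was below every AL library. The mean went from 23.5 ± 4.63 CPM (SD, n = 5) to 11.9 ± 2.23 CPM (SD, n = 4), a log2 fold change of -0.98 (SE 0.18, edgeR quasi-likelihood adjusted p = 0.0014) or 1.98-fold lower. Srm had the smallest adjusted p of the 10 genes.

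Sms encodes spermine synthase, which adds the second aminopropyl group. Its values were 16.9, 28.7, 16.6, 21.5 and 12.1 CPM in AL and 7.95, 10.1, 10.7 and 10.4 CPM in DR. The diets did not overlap, although AL replicate 5 came within a few CPM of the DR libraries. The mean dropped from 19.1 ± 6.27 CPM (SD, n = 5) to 9.79 ± 1.25 CPM (SD, n = 4), and the log2 fold change was -0.97 (SE 0.22, edgeR quasi-likelihood adjusted p = 0.00547). Leaving out DR replicates 1 and 2, which had the higher immune and endothelial marker sums, left a log2 fold change of -0.85 that missed the threshold (edgeR adjusted p = 0.0533), with only 2 DR libraries in the fit.

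Amd1 encodes S-adenosylmethionine decarboxylase, which makes the aminopropyl donor for both synthases. It measured 20.4, 19.3, 19.6, 34.3 and 30.3 CPM in AL and 28.1, 23.2, 22.7 and 23.1 CPM in DR. The 4 DR libraries lay inside the AL range. Means were 24.8 ± 7.002 CPM (SD, n = 5) and 24.3 ± 2.56 CPM (SD, n = 4), with a log2 fold change of -0.03 (95% interval -0.43 to 0.37, edgeR quasi-likelihood adjusted p = 0.911). The interval excludes a fall of the size fitted for Srm or Sms. The sign of this value changed with the fit, for example to 0.11 without AL replicate 4. Amd1 is also the gene whose counts are least certain in their origin: 87.4% of the 51-base windows of its longest coding transcript occur exactly in transcripts of other genes, chiefly its near copy Amd2, which was listed at 0.0544 to 0.188 CPM. Counts set aside in the deposited tables as not unique, for mapping to several places, made up 10.4% to 13.6% of all counts of each library. Whether a read with several alignments was counted once there is not given. Shared windows made up 41.7% for Odc1, 28.7% for Sms and 28.8% for Paox, 11.7% for Oaz2 and 6.83% or less for Sat1, Azin1, Srm and Smox. The partner that shared most was a processed pseudogene for Odc1 (Gm7993, 19.8% of windows), Sms (Sms-ps, 28.7%) and Paox (Gm19680, 27.3%). For Azin1 the partner was an antisense gene, Gm49077, whose reads cannot be told apart from its own in counts made without strand. The levels of Amd1, Oaz1 (below) and Odc1 are therefore the least certain.

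Of the 4 synthesis genes, 3 therefore fell and 1 did not pass, where 21.7% of all tested rows were lower in DR. The within-library ratio of Srm to Sms counts, which needs no scaling between libraries, ran from 0.953 to 1.54 in AL and from 0.882 to 1.77 in DR. Those ranges overlapped, with a mean log2 difference of -0.06.

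**Figure D2:**
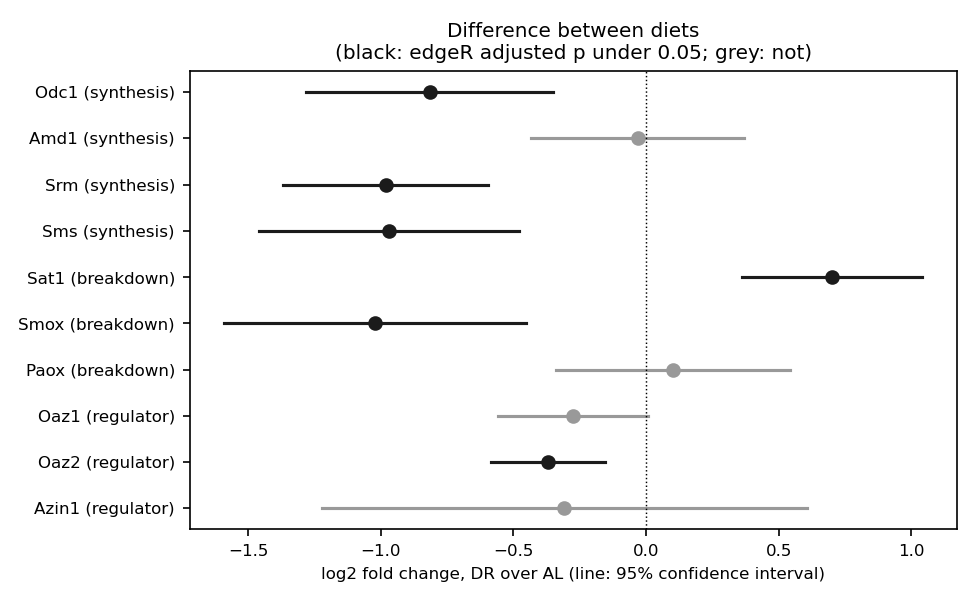
Log2 fold change of each of the 10 genes, DR over AL (x axis), with its 95% confidence interval from edgeR, in black where the adjusted p was under 0.05 and in grey where it was not. Sat1 alone is called on the right of 0, while Odc1, Srm, Sms, Smox and Oaz2 are called on the left.

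Sat1 encodes spermidine/spermine acetyltransferase, the enzyme that starts polyamine breakdown and export. Its level was 106, 146, 131, 119 and 143 CPM in AL and 204, 153, 214 and 270.0 CPM in DR. Every DR library exceeded every AL library, with DR replicate 2 the closest to the AL range. The mean rose from 129 ± 16.8 CPM (SD, n = 5) to 210.3 ± 48.1 CPM (SD, n = 4), a log2 fold change of 0.70 (SE 0.15, edgeR quasi-likelihood adjusted p = 0.00436) or 1.63-fold. Without DR replicates 1 and 2 the log2 fold change was 0.91 (edgeR adjusted p = 0.00262).

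Smox encodes spermine oxidase, which turns spermine directly back into spermidine. It was at 13.5, 21.1, 18.1, 15.2 and 7.15 CPM in AL and at 6.29, 7.57, 7.85 and 7.90 CPM in DR. AL replicate 5 fell among the DR libraries and the other AL libraries lay above all of them. The mean moved from 15.02 ± 5.26 CPM (SD, n = 5) to 7.40 ± 0.755 CPM (SD, n = 4), and the log2 fold change of -1.02 was the most negative of the 10 genes (SE 0.26, edgeR quasi-likelihood adjusted p = 0.00903). It was -1.20 without AL replicate 5 (edgeR adjusted p = 0.00021), and -0.93 with an adjusted p of 0.0729 without DR replicates 1 and 2.

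Paox encodes the peroxisomal oxidase that acts on acetylated polyamines, the product of SAT1. It was the least abundant of the 10 genes, at 3.18, 2.83, 3.22, 2.51 and 1.77 CPM in AL and 2.91, 2.99, 3.19 and 2.52 CPM in DR, from 47 to 104 counts per library. The DR values lay within the AL range. Its log2 fold change was 0.10 (95% interval -0.34 to 0.54, edgeR quasi-likelihood adjusted p = 0.714), an interval that holds a modest change in either direction.

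Of the 3 breakdown genes, 1 rose, 1 fell and 1 did not pass, where 19.0% of all tested rows were higher in DR and 21.7% lower. The ratio of Sat1 to Odc1 counts within a library joined the gene that rose to the first synthesis gene. It was 1.73, 2.78, 2.18, 1.34 and 2.002 in AL and 3.72, 5.89, 6.54 and 6.96 in DR. The ranges did not overlap, and the mean log2 ratio was higher in DR by 1.53 (1.39 to 1.73 with any 1 library left out). Both genes had passed the test on their own, so this ratio is a second view of the same counts.

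**Figure D3:**
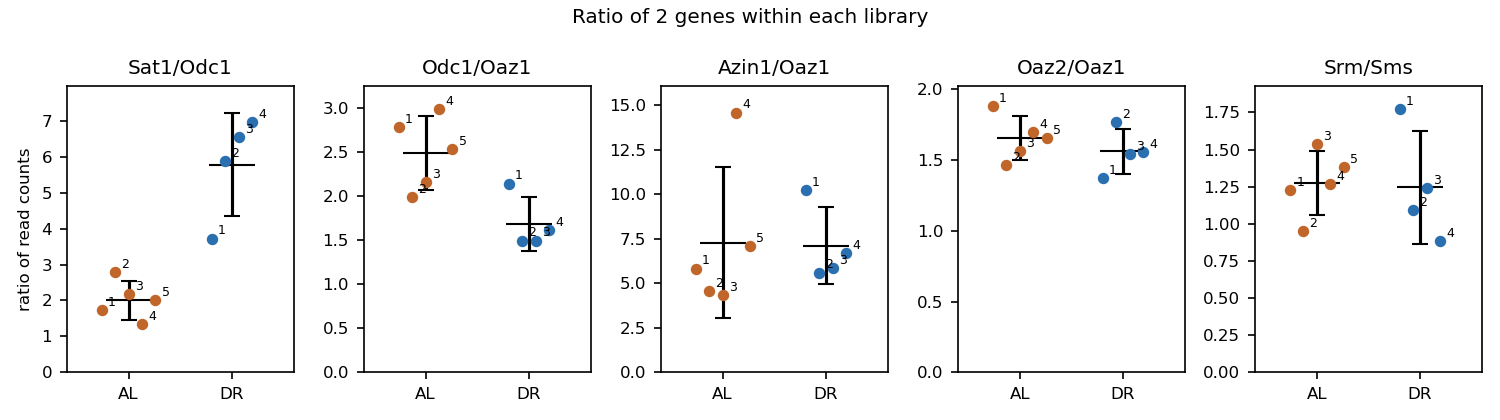
Ratio of the read counts of 2 genes within each library (y axis, from 0) for 5 pairs, with replicate numbers, group mean and SD. Sat1/Odc1 ran from 1.34 to 2.78 in AL and from 3.72 to 6.96 in DR, while the other 4 ratios overlapped between the diets.

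The antizymes Oaz1 and Oaz2 bind ornithine decarboxylase, block its assembly into dimers and lead it to degradation, and full-length antizyme is made only when the ribosome shifts frame at the stop codon of the first reading frame. That site is shown because it is the step at which polyamines act on these messages, a step that RNA levels do not measure. In GENCODE transcripts of the GRCm38 mouse genome it occurs 1 time in each gene, and 27 of the 30 bases shown are the same in both, with the skipped-over stop codon in capitals:

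Oaz1: cggtggtgctccTGAtgtccctcacccacc
Oaz2: ctgtggtgctccTGAtgcccctcacccact

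Oaz2 stood at 41.5, 38.8, 43.6, 50.8 and 46.6 CPM in AL and 35.2, 30.6, 33.7 and 37.5 CPM in DR. No DR library reached the lowest AL library. The mean fell from 44.3 ± 4.64 CPM (SD, n = 5) to 34.2 ± 2.86 CPM (SD, n = 4), a log2 fold change of -0.37 (SE 0.10, edgeR quasi-likelihood adjusted p = 0.0111), the smallest of the called changes. Without DR replicates 1 and 2 it was -0.31 and missed the threshold (edgeR adjusted p = 0.0813).

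Oaz1 stood at 22.1, 26.5, 27.9, 29.9 and 28.2 CPM in AL and 25.6, 17.4, 21.9 and 24.1 CPM in DR. AL replicate 1 lay among the DR libraries, 2 of which were below every AL library. Its log2 fold change was -0.28 (95% interval -0.56 to 0.01, edgeR quasi-likelihood adjusted p = 0.109), and it passed with upper-quartile scaling (-0.34, edgeR adjusted p = 0.0477) and with library size only (edgeR adjusted p = 0.0399). Its pseudogene Oaz1-ps holds 51.9% of its 51-base windows, so part of its reads may not have been placed. The ratio of Oaz2 to Oaz1 counts overlapped between the diets, with a mean log2 difference of -0.08.

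Azin1 encodes antizyme inhibitor, an inactive relative of ornithine decarboxylase that draws antizyme away from it. Its level was 129, 120.4, 120.4, 437 and 199 CPM in AL and 263, 97.3, 128 and 161 CPM in DR. AL replicate 4 was far above the other AL libraries and DR replicate 1 was the highest DR library, so the diets overlapped widely. Means were 201 ± 136 CPM (SD, n = 5) and 162 ± 71.7 CPM (SD, n = 4), with a log2 fold change of -0.31 (95% interval -1.22 to 0.61, edgeR quasi-likelihood adjusted p = 0.586). The interval is the widest of the 10 genes and does not show that Azin1 was alike in both diets. Without AL replicate 4 the value was 0.19 (edgeR adjusted p = 0.631).

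Of the 3 regulators, 1 fell and 2 did not pass, where 21.7% of all tested rows were lower in DR. The ratio of Odc1 to Oaz1 counts ran from 1.99 to 2.99 in AL and 1.49 to 2.14 in DR, with DR replicate 1 in the AL range and a mean log2 difference of -0.56. The ratio of Azin1 to Oaz1 counts ran from 4.32 to 14.6 in AL and 5.61 to 10.3 in DR, a mean log2 difference of 0.08.

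Levels per length ordered the genes differently from CPM. Per kilobase of the longest coding GENCODE transcript, Sat1 was the highest at 111 ± 14.4 CPM per kb in AL and 181 ± 41.4 CPM per kb in DR (SD, n = 5 and 4, here and below). Azin1 followed with 41.3 ± 27.9 and 33.3 ± 14.7 CPM per kb, a spread that took in the next genes. In AL, Odc1 (30.4 ± 6.42), Oaz1 (25.1 ± 2.77) and Oaz2 (24.0 ± 2.52 CPM per kb) did not differ beyond their spread. In DR, Oaz1 (20.8 ± 3.35) and Oaz2 (18.6 ± 1.55) stood beside Odc1 (17.2 ± 5.59 CPM per kb), also within their spread. Srm came next at 17.5 ± 3.46 CPM per kb in AL and 8.89 ± 1.67 CPM per kb in DR. Amd1, Smox and Sms lay between 5.15 and 7.74 CPM per kb in AL, with overlapping spreads, and Paox was last at 0.58 ± 0.128 CPM per kb. In DR, Amd1 (7.57 ± 0.799 CPM per kb) was close to Srm, while Smox (3.22 ± 0.328) and Sms (2.63 ± 0.337 CPM per kb) were lower. The length is that of 1 annotated transcript, which may not be the one these cells use. It also takes in windows shared with other genes (87.4% for Amd1, 51.9% for Oaz1 and 41.7% for Odc1). Levels per kb of these 3 genes may therefore be too low, and their places in the order are uncertain.

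Within a diet the genes varied in 2 recurring ways. Odc1, Amd1 and Azin1 were all highest of the AL libraries in AL replicate 4 and highest of the DR libraries in DR replicate 1, and so was Mat2a, the S-adenosylmethionine synthetase subunit upstream of Amd1 (350.4 CPM in AL replicate 4 against 201 to 303 CPM in the other AL libraries, and 264 CPM in DR replicate 1 against 132 to 190.2 CPM). The second highest AL value of these 4 genes was in AL replicate 5. Suprabasal marker sums were lowest in these libraries: 2102 and 2126 CPM in AL replicates 4 and 5 against 3976 to 4855 CPM in the other AL libraries, and 2387 CPM in DR replicate 1 against 3430 to 5782 CPM in the other DR libraries. The single markers did not all follow their sum. Krt10 and Krt1 were lowest of the DR libraries in DR replicate 1 (965 and 167 CPM), but Lor, Ivl, Sbsn and Krtdap were lowest in DR replicate 2. Sbsn was higher in AL replicate 5 (679 CPM) than in AL replicate 2 (613 CPM). The part of the suprabasal sums in this pattern was not tested. Oaz1 shared both peaks, and Oaz2 only that of AL replicate 4. Both peaks also occurred in Ahcy, Eif5a, Gnmt and the keratin Krt14 (5654 CPM in AL replicate 4 and 3348 CPM in DR replicate 1). The pattern was thus not particular to polyamine genes. The highest library exceeded the lowest by 3.63-fold for Azin1 in AL and 2.70-fold in DR, by 1.70-fold and 2.11-fold for Odc1, and by 1.77-fold and 1.24-fold for Amd1. Without AL replicate 4 and DR replicate 1, a setting chosen after seeing the data, Odc1 had a log2 fold change of -0.92 (edgeR adjusted p = 0.00243) and again 5 genes were lower and 1 higher.

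Srm, Sms and Smox varied in the second way: all 3 were highest of the AL libraries in AL replicate 2 and lowest in AL replicate 5. The same extremes occurred in Mtap, Aldh18a1, Slc7a2, the fibroblast marker Bgn and some markers of dividing cells, such as Mki67. This pattern too was thus not particular to these 3 genes. The highest AL library exceeded the lowest by 1.63-fold for Srm, 2.37-fold for Sms and 2.95-fold for Smox. AL replicate 5 also had the lowest AL sum of markers of dividing cells (118 CPM against 461 to 873 CPM) and of fibroblast markers (169 CPM against 272 to 593 CPM). The fibroblast sum followed Bgn, at 59.8 CPM in AL replicate 5 and 149 to 519 CPM in the other AL libraries. Col1a1 was lowest there too (36.5 CPM), but Col1a2 was highest there (71.8 CPM). Other sums were extreme in AL replicate 5 as well: immune and endothelial sums were the lowest in AL (2.56 and 0.94 CPM). Bulge and melanocyte sums were the highest in AL (38493 and 231 CPM). The sums of dividing cell, fibroblast and bulge markers were all lower in DR, where Srm, Sms and Smox were lower too. The part of these sums in the 3 results was not tested. Leaving out AL replicate 5 gave log2 fold changes of -1.08 for Srm, -1.10 for Sms and -1.20 for Smox, each past the threshold.

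**Figure D4:**
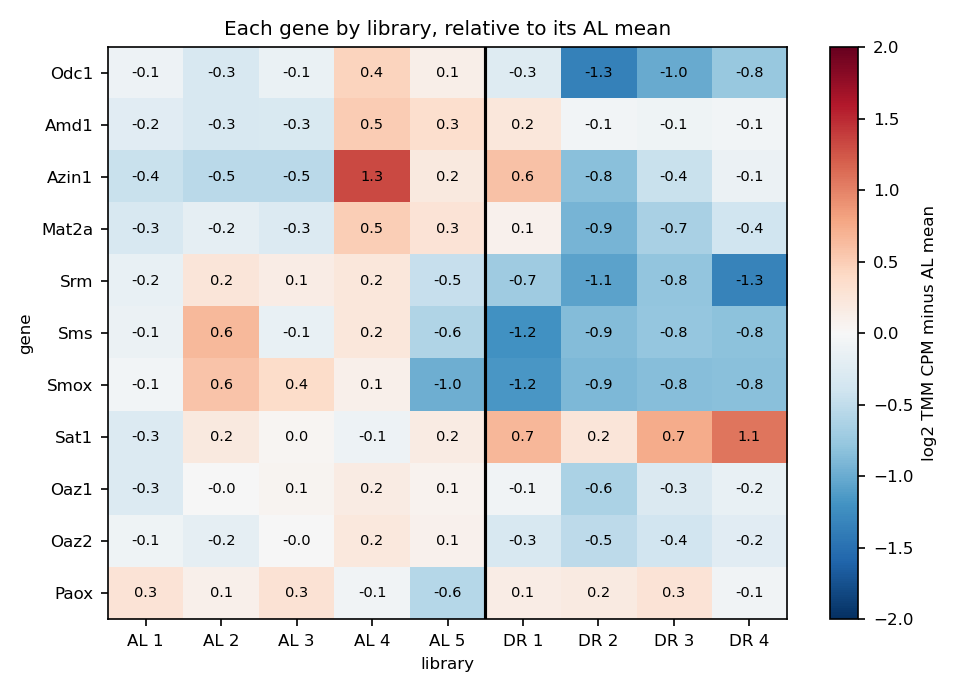
Log2 level (CPM after TMM scaling) of each of the 10 genes and Mat2a in every library, relative to the mean of the AL libraries, with red for higher and blue for lower and the value printed in each cell. AL replicate 4 and DR replicate 1 hold the highest Odc1, Amd1, Azin1 and Mat2a of their diet, and AL replicate 5 the lowest AL Srm, Sms and Smox.

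Promoter sequence is shown for 3 genes that fell and the 1 that rose, so that genes with opposite changes can be read side by side. RefSeq (GRCm38.p6) gave 10 starts of 8 of the 10 genes. Srm and Azin1 had no entry. The 250 bases before each start were searched on both strands for 4 motifs, none of which contains another. The first was the E-box CACGTG, which is bound by factors of the MYC family among others. The next was the promoter element TATAAA, placed shortly before the start of many inducible genes. The third was GGGCGG, the core that SP1 and its relatives bind, and the last the full palindromic glucocorticoid response element. Matches to any of these are in capitals, and coordinates are on the GRCm38.p6 build, not the mm9 build of the counts.

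The first sequence is Odc1 (chr12:17544623-17544872, plus strand), the next the first of 2 Sms starts (chrX:157492288-157492537, minus strand), then Smox (chr2:131491612-131491861, plus strand) and Sat1 (chrX:155216450-155216699, minus strand), each written 5′ to 3′ on the gene's strand.
Odc1: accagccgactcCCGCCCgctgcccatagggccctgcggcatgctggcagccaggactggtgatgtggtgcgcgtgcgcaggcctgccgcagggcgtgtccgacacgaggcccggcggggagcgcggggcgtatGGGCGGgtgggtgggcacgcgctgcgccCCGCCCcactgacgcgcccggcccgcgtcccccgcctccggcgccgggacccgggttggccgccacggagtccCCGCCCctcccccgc
Sms: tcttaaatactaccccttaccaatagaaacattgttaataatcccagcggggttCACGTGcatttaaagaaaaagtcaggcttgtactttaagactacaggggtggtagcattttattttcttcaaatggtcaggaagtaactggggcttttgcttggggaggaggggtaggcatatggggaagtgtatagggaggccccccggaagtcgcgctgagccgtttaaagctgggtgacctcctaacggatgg
Smox: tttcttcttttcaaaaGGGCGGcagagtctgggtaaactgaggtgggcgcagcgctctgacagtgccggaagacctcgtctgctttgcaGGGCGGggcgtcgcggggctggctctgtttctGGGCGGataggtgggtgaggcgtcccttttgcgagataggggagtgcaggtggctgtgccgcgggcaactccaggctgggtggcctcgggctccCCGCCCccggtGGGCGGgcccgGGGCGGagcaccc
Sat1: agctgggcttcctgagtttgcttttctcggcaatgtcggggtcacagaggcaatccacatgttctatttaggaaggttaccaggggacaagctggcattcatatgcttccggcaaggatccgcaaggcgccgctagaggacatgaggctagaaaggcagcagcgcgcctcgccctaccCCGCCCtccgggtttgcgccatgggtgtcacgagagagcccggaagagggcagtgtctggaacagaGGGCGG

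GGGCGG was found before 8 of the 10 starts, with 4 matches before Odc1, 6 before Smox and 2 before Sat1, and it occurs before 32.7% of all 32851 RefSeq starts. CACGTG was found before 1 start, the Sms start shown (6.02% of all starts). Neither TATAAA (12.4% of all starts) nor the glucocorticoid response element (0.0091% of all starts) was found before any of the 10. Only these exact letters were searched, so a near match such as tatataag before the Amd1 start was not counted. GC content was 80.0% for Odc1, 68.0% for Smox, 59.6% for Sat1 and 47.2% for the Sms start shown. The other Sms start had a GC content of 75.2%, 4 GGGCGG matches and no CACGTG. Which Sms start these cells use was not tested. Genes that fell and the gene that rose thus both had GGGCGG, and a match is only a description of these letters.

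The steps that feed and drain the pathway were read from 6 lists of 50 genes, of which 39 were tested. In DR 8 were higher and 11 lower (48.7% called, against 40.7% of all tested rows), and their median log2 fold change was -0.16. The counts of each list below stand beside 19.0% of all tested rows higher and 21.7% lower, and no list was tested as a set. Close relatives of the 10 genes gave no call: Azin2 was at 19.9 ± 2.81 CPM (SD, n = 5) in AL and 20.02 ± 1.67 CPM (SD, n = 4) in DR, with a 95% interval of its log2 fold change of -0.26 to 0.27. Sat2 was at 1.75 ± 0.480 and 1.57 ± 0.145 CPM, with an interval of -0.67 to 0.35. Amd2, Oaz3 and Satl1 had too few counts to be tested, with no library above 0.355 CPM.

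In the supply of ornithine and arginine, 3 of 8 tested genes were lower and 1 was higher. Aldh18a1 encodes pyrroline-5-carboxylate synthase, which starts the route from glutamate to ornithine and proline. It was at 45.5, 47.6, 43.4, 42.9 and 24.8 CPM in AL and 8.52, 6.94, 5.67 and 5.80 CPM in DR, with AL replicate 5 between the other AL libraries and DR. It fell 6.06-fold (log2 fold change -2.60, SE 0.21, edgeR quasi-likelihood adjusted p = 1.36e-05). Gatm, which uses arginine to make the creatine precursor, fell by 3.07 on the log2 scale (edgeR adjusted p = 0.00108) from a low level of 0.469 to 0.867 CPM in AL to 0 to 0.180 CPM in DR. The size of that fall depended on DR replicate 1, the highest DR library: without it the log2 fold change was -3.82, and without DR replicates 1 and 2 it was -4.96.

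Slc25a15, the mitochondrial ornithine carrier, fell by 0.34 on the log2 scale (edgeR quasi-likelihood adjusted p = 0.0321), a call lost without any 1 of AL replicates 1 and 3 and DR replicates 1, 3 and 4. Ass1, the urea cycle enzyme that makes the precursor of arginine, rose by 0.86 on the log2 scale (edgeR adjusted p = 0.0265), a call lost without any 1 of AL replicates 1 and 3 and DR replicates 3 and 4. The arginases Arg1 and Arg2, which split arginine into ornithine and urea, did not pass (log2 fold changes -0.04 and -0.13, edgeR adjusted p = 0.915 and 0.776), and nor did Oat, the ornithine aminotransferase (0.18, adjusted p = 0.495). Otc had no count in any library.

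In the methionine cycle and the salvage of methylthioadenosine, the by-product of both aminopropyl transfers, 4 of 11 tested genes were lower and 2 higher. Mtap, which opens the salvage route by cleaving methylthioadenosine, was at 20.3 to 30.6 CPM in AL and 14.5 to 16.4 CPM in DR, without overlap, and fell by 0.78 on the log2 scale (SE 0.12, edgeR quasi-likelihood adjusted p = 0.000619). Later enzymes of that route fell as well: Apip by 0.75 (edgeR adjusted p = 0.00142) and Enoph1 by 0.44 (edgeR adjusted p = 0.00654). Mri1 and Adi1 of the same route had log2 fold changes of -0.28 and -0.30 and missed the threshold (edgeR adjusted p = 0.0884 and 0.056).

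Ahcy, which removes S-adenosylhomocysteine, fell by 0.93 on the log2 scale (SE 0.21, edgeR quasi-likelihood adjusted p = 0.00463). The subunits of S-adenosylmethionine synthetase differed: Mat2b, the regulatory subunit, was at 56.5 to 79.3 CPM in AL and 89.5 to 129.9 CPM in DR and rose by 0.63 (edgeR adjusted p = 0.00245). Mat2a, the catalytic subunit, had a log2 fold change of -0.46 (95% interval -0.96 to 0.03, edgeR adjusted p = 0.123), and passed without DR replicate 1 (-0.68, edgeR adjusted p = 0.0284). Gnmt, a methyltransferase that uses up S-adenosylmethionine, rose by 1.26 (edgeR adjusted p = 0.0383), with AL replicate 4 (13.7 CPM) among the DR libraries (10.7 to 16.5 CPM) and the other AL libraries at 2.60 to 4.46 CPM. Without AL replicate 4 the log2 fold change was 1.91 (edgeR adjusted p = 0.000257), and the call was lost without any 1 of the other 8 libraries (largest edgeR adjusted p = 0.0847).

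Spermidine is also the donor for hypusine, the modified residue that the translation factor eIF5A needs. Of the 4 genes of that step, Eif5a2, the second and scarcer gene for eIF5A here, rose by 0.61 on the log2 scale (15.02 ± 1.79 CPM in AL, n = 5, and 23.0 ± 1.83 CPM in DR, n = 4, SD; edgeR quasi-likelihood adjusted p = 0.00135). Its DR libraries all lay above its AL libraries. Eif5a, the main gene, was at 295 to 477 CPM in AL and 190.4 to 327 CPM in DR and did not pass (log2 fold change -0.38, edgeR adjusted p = 0.107). The hypusine enzymes Dhps and Dohh did not pass either (0.24 and 0.11, edgeR adjusted p = 0.0797 and 0.368).

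Of 10 tested genes that carry polyamines or their precursors across membranes, 4 were higher and 3 lower. The ATPases Atp13a2, a lysosomal polyamine exporter, and Atp13a3, linked to polyamine uptake, rose by 0.42 and 0.47 on the log2 scale (edgeR quasi-likelihood adjusted p = 0.00357 and 0.00347). Atp13a2 was at 229.9 to 258 CPM in AL and 302 to 352 CPM in DR, and Atp13a3 at 61.9 to 85.0 CPM and 95.4 to 113 CPM, both without overlap. Slc3a2, the heavy chain of several amino acid transporters, rose by 0.64 (284 to 381 CPM in AL, 464 to 546 CPM in DR, edgeR adjusted p = 0.000884). Atp13a5 rose by 1.67 from at most 0.469 CPM in AL to at most 0.868 CPM in DR (edgeR adjusted p = 0.0469), a call lost without any 1 of 6 libraries (AL replicates 1, 2 and 4 and DR replicates 2, 3 and 4).

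The 3 that fell were carriers of arginine, ornithine or organic cations. Slc7a2, a cationic amino acid transporter, was at 42.2, 100.7, 71.5, 36.4 and 10.2 CPM in AL and 7.19, 10.8, 8.16 and 5.71 CPM in DR, so that AL replicate 5 again lay among the DR libraries. It fell by 2.71 on the log2 scale (SE 0.53, edgeR quasi-likelihood adjusted p = 0.00224). Slc7a1, of the same family, fell by 0.75 (edgeR adjusted p = 0.0136). Slc22a3, an organic cation transporter, fell by 2.07 (edgeR adjusted p = 0.0183) with AL replicate 5 at 30.6 CPM and the other AL libraries at 4.42 to 6.08 CPM, and by 1.09 without AL replicate 5 (edgeR adjusted p = 0.00208). Its call was lost without DR replicate 3 or DR replicate 4 (edgeR adjusted p = 0.0563 and 0.0516).

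Among 4 tested genes of diamine and aldehyde oxidation, Aldh9a1, which oxidises the aldehyde formed from putrescine, fell by 0.57 on the log2 scale (40.1 to 51.4 CPM in AL, 28.1 to 36.6 CPM in DR, edgeR quasi-likelihood adjusted p = 0.00147). The other 3 did not pass, and the diamine oxidase gene Aoc1 had no count in any library.

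**Figure D5:**
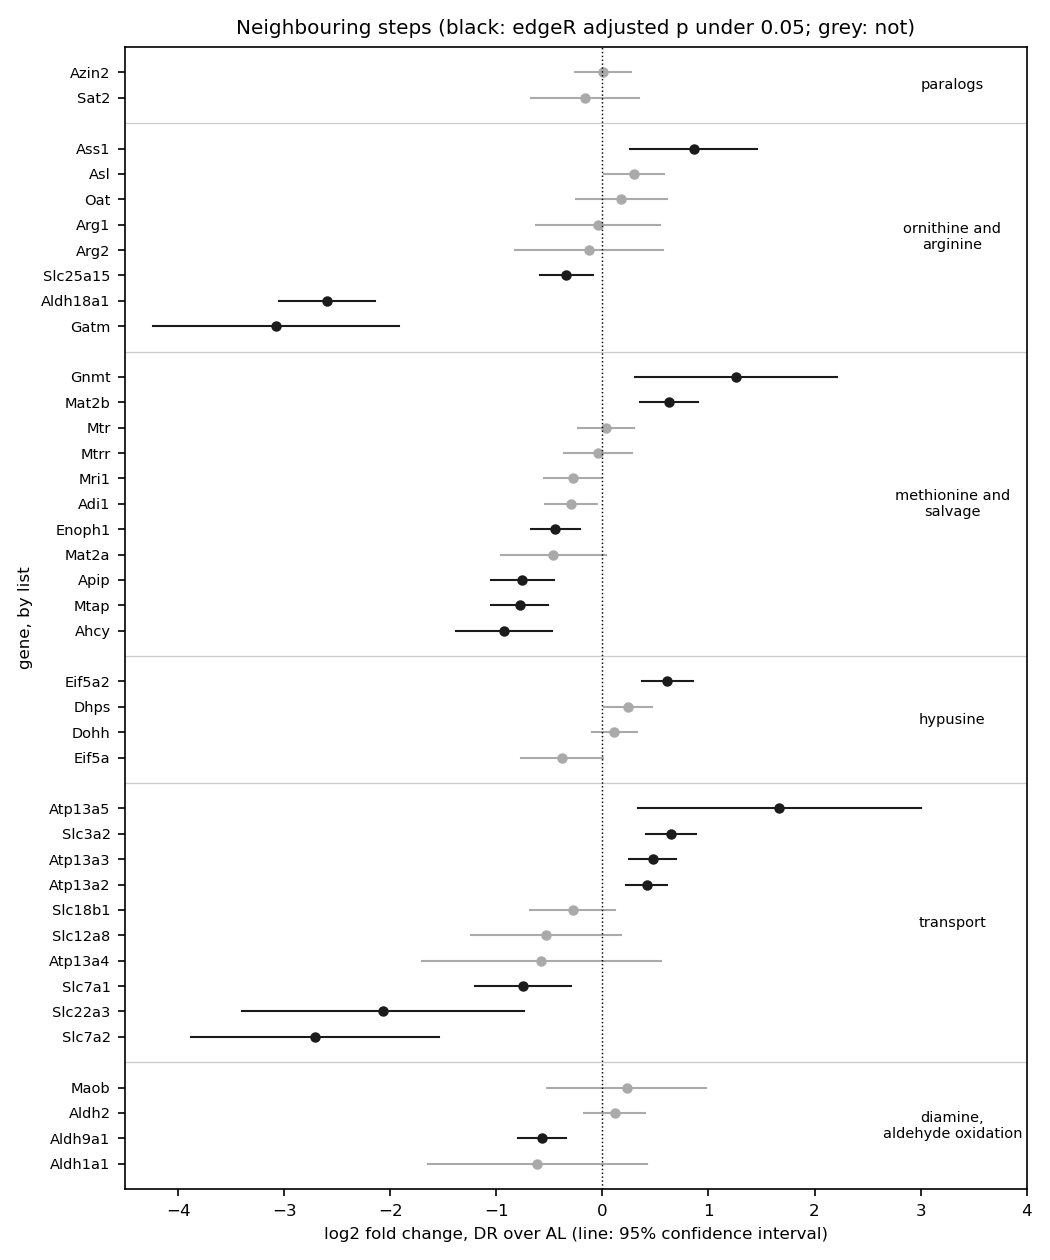
Log2 fold change, DR over AL (x axis), with its 95% confidence interval from edgeR for the 39 tested genes of 6 lists of neighbouring steps, in black where the adjusted p was under 0.05 and in grey where it was not. The called genes are 8 on the right of 0 and 11 on the left, with Gatm, Slc7a2 and Aldh18a1 farthest left.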

How the data were processed

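The authors deposited whole-number read counts per gene symbol, 1 table for each of 9 libraries (5 AL, 4 DR), with no normalization. Per the submitters' processing notes, reads were handled with TopHat2 2.1.0 and Bowtie (mm9 build), HTSeq 0.11.2 and FastQC 0.11.5; which annotation and which settings for strand and multiple mapping were used is not given in the sources used here. Per the labels' protocols, libraries were made with a TruSeq RNA v2 kit, which does not mark strand, and read for 51 cycles from 1 end, so antisense genes share reads. The 6 rows that name no gene (25.9% to 30.7% of all counts) were left out. Total gene counts were 26119459 to 33559312, and the 16 within-group pairs of libraries differed beyond sampling noise (chi-square divided by its degrees of freedom, 24.6 to 110), so each counted once.

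Counts were tested with edgeR 4.0.16 in R 4.3.3 (filterByExpr, TMM, quasi-likelihood fit on diet alone over all 9 libraries, Benjamini-Hochberg adjusted p under 0.05 over 15447 rows). Standard errors and 95% intervals follow from the F statistic. Counts were also simulated for 15447 genes, with 100 genes changed 1.5-fold and 100 changed 2-fold. The test recovered 19% of the 1.5-fold and 60% of the 2-fold changes, and 4.82% of its calls were false. That share of changed genes is far below the 40.7% called here, so these rates may not hold for these data. Ratios use raw counts within a library and were not tested. Windows of 51 bases were matched exactly, on both strands, to GENCODE transcripts, and promoters are RefSeq's. Alternatives were DESeq2 1.42.0 size factors and Wald test, 2 other scalings, 2 filters, limma 3.58.1 voom with and without quality weights, robust dispersion, a replicate block, a threshold of 0.01 and sets of libraries left out.

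The members and lists were chosen with earlier results of these data known. All 10 members are named, every paralog with a count, and in each other list up to 4 called genes with the smallest p. Enoph1, Gnmt, Atp13a5, Slc7a1, Slc22a3, Mat2a and the other list genes without a call were named after their values were seen. Azin2, Slc18b1 and Aoc1 stand under older symbols in the tables.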

Additional observations from a re-analysis of the deposited data

Results flagged for a closer look

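In 34 genes and ratios, with AL and DR read separately (68 groups of libraries), 6 groups held 1 library far from the others, where chance alone flags about 1 group in 20 at the 95% critical value used. The groups are not independent, since Azin1 and its ratio to Oaz1 use the same counts. Azin1 was at 437 CPM in AL replicate 4 and at 120.4 to 199 CPM in the other AL libraries, and the ratio of Azin1 to Oaz1 counts was 14.6 there and 4.32 to 7.07 in the others. Amd1 was at 28.1 CPM in DR replicate 1 and at 22.7 to 23.2 CPM in the other DR libraries. Azin2, the second antizyme inhibitor gene, was at 22.5 CPM in the same library against 19.1 to 19.3 CPM. Aldh18a1 was at 24.8 CPM in AL replicate 5 and at 42.9 to 47.6 CPM in the other AL libraries, and its log2 fold change was -2.73 without that library. Satl1 had 0.0722 CPM in AL replicate 1 and no count in the other AL libraries, a level of a few reads.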

How the results depend on the processing

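Across 23 alternative settings Srm and Sat1 kept their call in all, and Odc1 missed only the threshold of 0.01. At that threshold 1866 genes were higher and 2071 lower in DR, 3 of the polyamine genes were lower, and 5 genes of the neighbouring steps were higher. Without DR replicates 1 and 2, and also without AL replicate 1, 2 polyamine genes were lower (Odc1 and Srm), with fewer libraries in the fit. Sms, Smox and Oaz2 lost their calls in both settings, with edgeR adjusted p of 0.0533, 0.0729 and 0.0813 in the first and 0.0703, 0.0976 and 0.0951 in the second. With any 1 library left out, 5 polyamine genes were lower and 1 higher each time, and 5 to 7 genes of the neighbouring steps were higher. The lowest number, 5, came when any 1 of AL replicates 1 and 3 and DR replicates 3 and 4 was missing.

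Signs changed only for genes without a call. With any 1 library left out, log2 fold changes ran from -0.11 to 0.11 for Amd1, from -0.015 to 0.17 for Paox, from -0.64 to 0.19 for Azin1 and from -0.062 to 0.057 for Azin2. Positive values came for Amd1 with AL replicate 4 left out, with AL replicate 5 left out (0.052) and with DR replicate 3 left out (0.013), and for Azin1 without AL replicate 4. The negative value for Paox was without AL replicate 5, and those for Azin2 came with AL replicate 2 left out (-0.019), with AL replicate 4 left out and with DR replicate 1 left out (-0.052). Amd1 was 0.015 with limma-voom, 0.11 with quality weights, 0.090 with the replicate block and 0.037 without AL replicate 4 and DR replicate 1, and Paox was -0.013 with the replicate block. Azin2 was -0.053 with upper-quartile scaling, -0.059 with library size only, -0.015 with quality weights, -0.046 without DR replicates 1 and 2, -0.028 also without AL replicate 1, and -0.12 without AL replicate 4 and DR replicate 1. The cause was not tested.

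Nothing in the labels says that replicate numbers pair the diets. Deviations of same-numbered libraries correlated by 0.04, 0.13, 0.23 and 0.03. These values cannot settle whether libraries were paired, since differently numbered libraries were not compared. With the replicate block, 3061 genes were higher and 3352 lower, among them 1 and 5 polyamine genes. Among the called neighbouring genes, Slc25a15 lost its call with the replicate block (-0.25, edgeR adjusted p = 0.0776). No scaling moved the median of all tested rows by over 0.1 on the log2 scale.

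At this depth Paox rested on 47 to 104 counts per library. Changes of 2-fold or less may be missed with 5 against 4 libraries. The simulation recovered 19% of 1.5-fold and 60% of 2-fold changes, but how often was not measured at the share of genes called here.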
